A study of Mus musculus with 23 samples.

Results

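The genes described here handle high-energy phosphate in the mouse intestinal epithelium. They are the creatine transporter gene Slc6a8, the creatine synthesis gene Gamt, the creatine kinase genes Ckb and Ckmt1, and the adenylate kinase genes Ak1, Ak3 and Ak4. These 7 genes were chosen from earlier results of the same read counts, by name and without a threshold, so their changes are given as a description of these libraries and not as independent evidence. They were 7 of the 22350 genes counted in RNA-seq, of the 22230 counted in Ribo-seq of organoids and of the 22314 counted in Ribo-seq of mice. RNA-seq counts messenger RNA, while Ribo-seq counts ribosome footprints, the mRNA fragments that a ribosome shields from nuclease.

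The 23 libraries analysed came from C57BL/6 mice and from organoids, epithelial cultures grown from intestinal crypts. Wild type (WT) organoids carried VillinCre.ERT2, a Cre recombinase that the Villin promoter drives in gut epithelium and that tamoxifen activates, and RPL22.HA, a tagged ribosomal protein by which ribosomes are pulled down. Rptor fl/fl organoids carried VillinCre.ERT2 with floxed Rptor, and according to the labels RPL22.HA was present in those used for Ribo-seq but not in those used for RNA-seq. Stem cell enriched (SCe) organoids had the WT genotype and were grown with 10 µM CHIR99021 and 1.5 mM valproic acid. RNA-seq covered 2 WT lines and 2 Rptor fl/fl lines with 2 technical libraries each, and 3 SCe organoid samples. Ribo-seq covered 3 Rptor fl/fl and 3 SCe organoid samples, and the small intestine of 3 WT mice (Lgr5Cre.ERT2 with RPL22.HA) and 3 Rptor fl/fl mice (the same alleles with floxed Rptor), in which the Lgr5 promoter drives Cre in stem cells. The labels call the WT and Rptor fl/fl organoids and all mice untreated, whereas the study's methods describe tamoxifen induction.

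Cells hold energy in ATP, and both enzyme families move its terminal phosphate. Creatine kinases pass a phosphate between ATP and creatine, which buffers ATP and lets the more mobile phosphocreatine carry energy from mitochondria to the cytosol. Adenylate kinases turn ADP into ATP and AMP and back, and AMP in turn activates the energy sensor AMPK. Raptor, the product of Rptor, is a subunit of mTORC1, the kinase complex that couples nutrient supply to translation.

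The sequence around the start codon is where a ribosome begins a footprinted reading frame, and it is shown for the 2 genes with a called change of translation efficiency, Ckb and Ak4, and for 2 without, Ckmt1 and Slc6a8. Each is taken from the transcript with most RNA-seq reads in the GENCODE vM21 annotation of mm10, 5′ to 3′, with the start codon in capitals.
Ckb: gctgccgccgccATGcccttctccaacagc
Ak4: accgccaaagccATGgcttccaaactcctg
Ckmt1: catccccaagccATGgctggtcccttctcc
Slc6a8: ggccATGgcgaaaaagagcgct
The Slc6a8 transcript is annotated with only 4 bases before its start codon, but the sequence the authors counted under this name was longer than the annotated one, 3360 against 3314 bases, and the added bases are not shown. Ckb lies at chr12:111669361-111672338 on the minus strand and encodes 381 residues, and Ckmt1 at chr2:121357714-121363737 on the plus strand encodes 418. Ak4 lies at chr4:101419277-101466995 on the plus strand with a protein of 223 residues, Ak3 at chr19:29020833-29047961 on the minus strand with 227, and Ak1 at chr2:32621758-32635058 on the plus strand with 194. Slc6a8 lies at chrX:73673150-73682502 on the plus strand and encodes 635 residues, and Gamt at chr10:80258151-80261012 on the minus strand encodes 236. The annotated span of Ak3 overlaps Cdc37l1 on the opposite strand by 5849 bases, and that of Ckmt1 overlaps Strc by 10 bases. These are overlaps of whole gene spans, introns included, and the overlap of transcript sequences was not measured. The paper names a stranded library kit for RNA-seq and does not say whether strand was used in counting.

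Reads assigned to genes came to between 27439459 and 67598878 in each RNA-seq sample, between 1106178 and 8257457 in Ribo-seq of organoids and between 772077 and 8238388 in mice, so counts limit the footprint values most. Levels are given as CPM, read counts relative to the library total, with TMM scaling within each of these 3 sets. Rptor mRNA was 51.5 and 47.9 CPM in WT lines, 14.8 and 15.5 CPM in Rptor fl/fl lines and 53.7 to 60.8 CPM in SCe samples, a fall against WT with a log2 fold change of −1.71 (SE 0.0835, adjusted p = 0.00516). Rptor footprints were 15.9 to 18.7 CPM in the organoid libraries labelled Rptor fl/fl and 15.2 to 41.8 CPM in SCe libraries, ranges that overlap (log2 −0.53, SE 0.335, adjusted p = 0.318). In mice they were 32.5 to 36.7 CPM in Rptor fl/fl and 39.5 to 44.5 CPM in WT (log2 −0.28, SE 0.123, adjusted p = 0.15). The organoid footprint libraries are therefore called by their label below, and the deleted part of Rptor was not counted apart. Lgr5, the receptor that marks intestinal stem cells, had 9 to 48 footprints in each WT mouse and 28 to 139 in each Rptor fl/fl mouse. Scaled for depth these were 7.7 to 11.3 CPM in WT and 45.6, 8.49 and 6.29 CPM in Rptor fl/fl. The ranges overlapped (log2 1.02, SE 0.633, adjusted p = 0.333 by edgeR). The summed level of 7 enterocyte markers in mice was 40410 to 41510 CPM in WT and 45420 to 48870 CPM in Rptor fl/fl. The 8 stem cell markers summed to 733 to 766 CPM in WT and 469.6 to 738 CPM in Rptor fl/fl mice, so footprints of enterocyte markers outnumbered those of stem cell markers in every mouse. In organoid mRNA Lgr5 was lower in Rptor fl/fl than in WT lines (log2 −1.80, SE 0.250, adjusted p = 0.0173). All samples are bulk, so fewer cells of a type and less RNA per cell cannot be told apart.

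**Figure D1:**
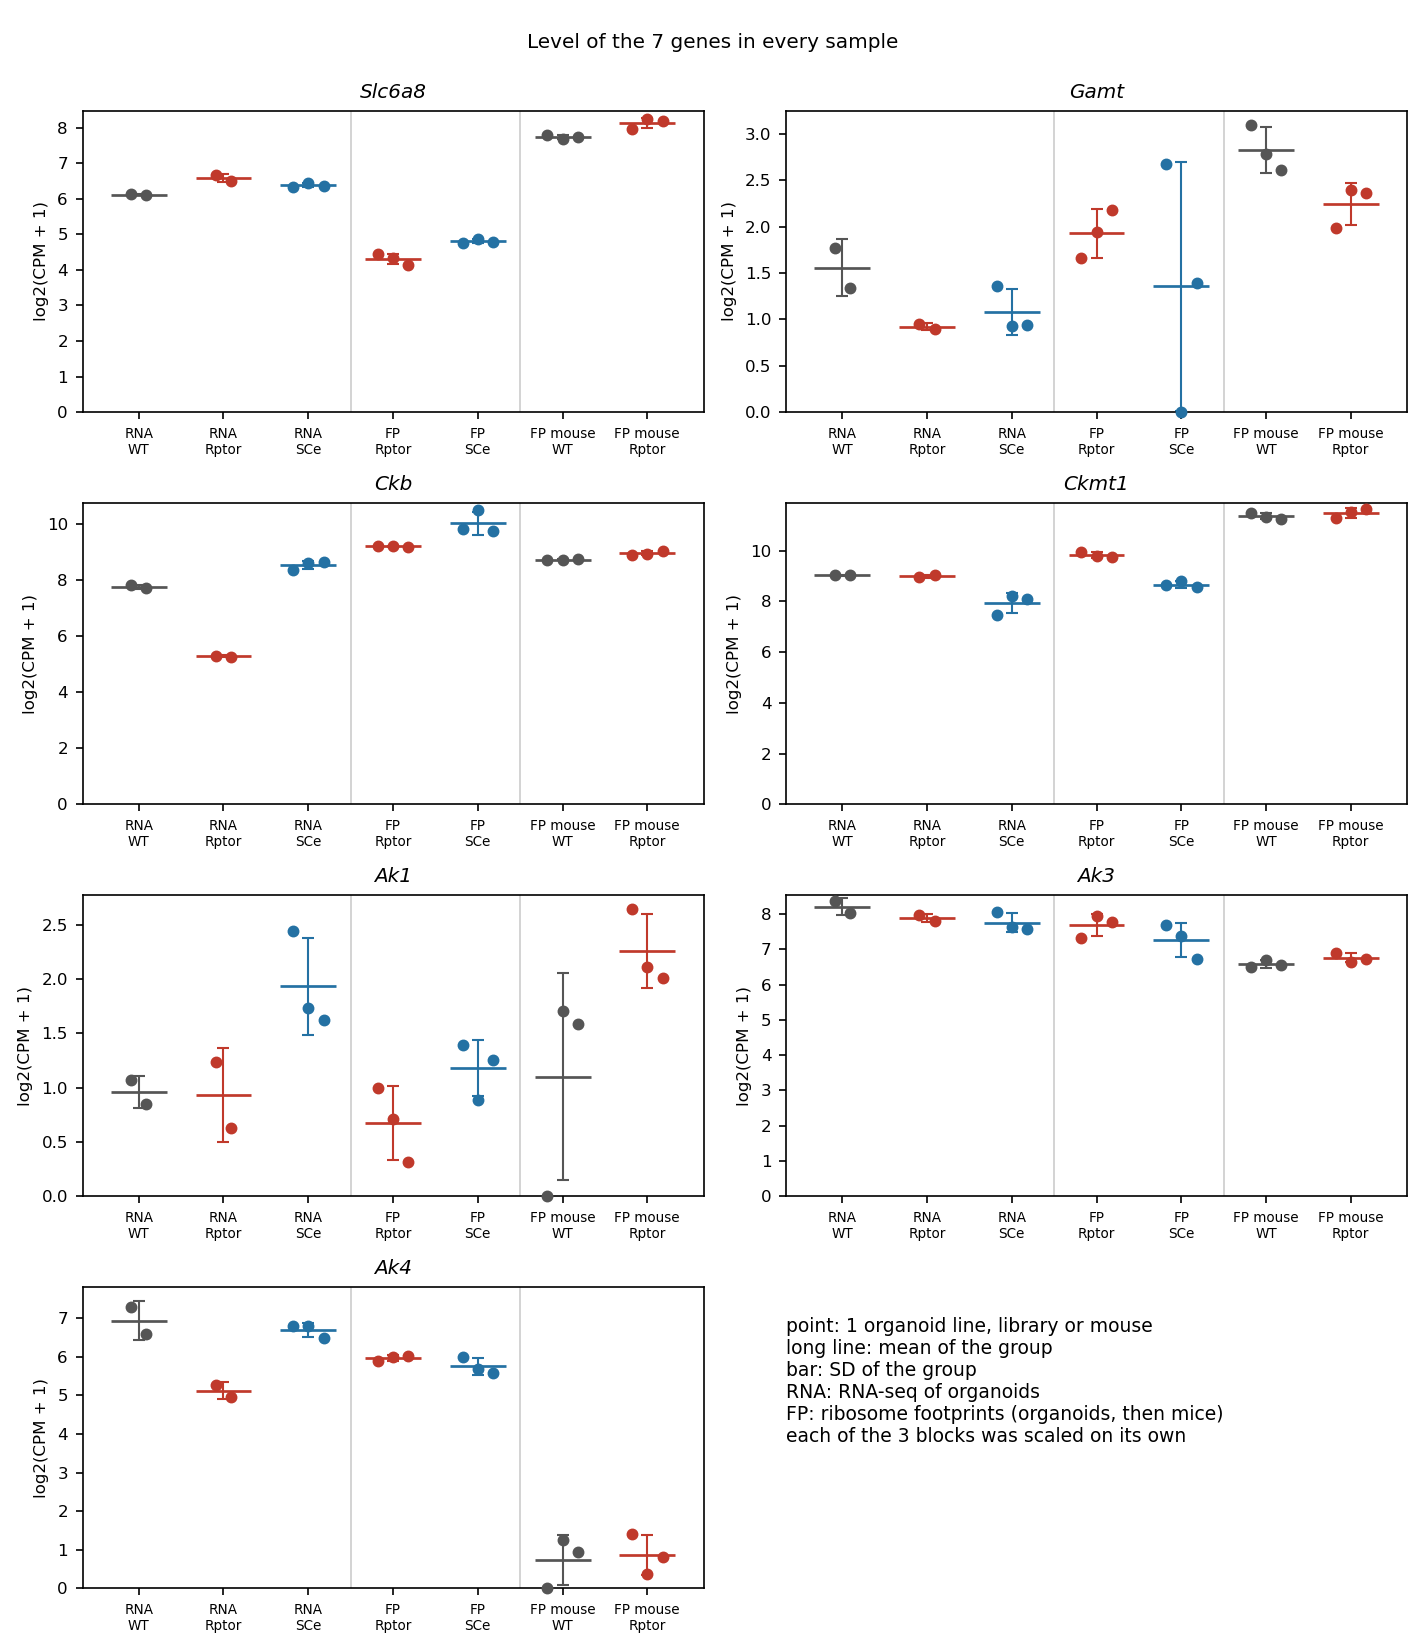
Level of each of the 7 genes, as log2(CPM + 1), in the 7 groups of RNA-seq (RNA) and ribosome footprints (FP). Each point is an organoid line, an organoid sample or a mouse, the long line is the group mean and the bar its SD, and the Ckb and Ak4 panels show mRNA low in the 2 Rptor fl/fl lines, at 38.8 and 37.5 CPM and at 37.7 and 30.2 CPM.

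Per length of the leading transcript, Ckmt1 had the highest mRNA level of the 7 genes in WT organoids, at 322 ± 1.70 CPM per kilobase (SD, n = 2). Ckb followed at 148 ± 7.78, Ak3 at 106 ± 17.6, Ak4 at 30.1 ± 10.3 and Slc6a8 at 20.6 ± 0.269, and both Gamt (2.00 ± 0.634) and Ak1 (0.456 ± 0.0979) lay far below the other 5. The order differed in the other groups. In SCe organoids Ckb stood first at 255 ± 26.1 CPM per kilobase (SD, n = 3) and Ckmt1 second at 153 ± 39.4, while Slc6a8 and Ak4 were at 24.9 ± 0.991 and 24.7 ± 2.95 and could not be ordered beyond their spread. In Rptor fl/fl organoids Ckmt1 was first at 315 ± 14.6 CPM per kilobase (SD, n = 2), followed by Ak3 at 84.3 ± 7.32 and Slc6a8 at 28.8 ± 2.33, and Ckb came next at 25.9 ± 0.622, with Ak4 at 8.13 ± 1.26.

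Footprints per kilobase of coding sequence put the creatine kinases first in every group. Ckb led in SCe organoids with 941 ± 286 CPM per kilobase against 323 ± 28.1 for Ckmt1 (SD, n = 3). In the libraries labelled Rptor fl/fl Ckmt1 led with 727 ± 60.0 against 517 ± 2.98 for Ckb (SD, n = 3). In mice Ckmt1 was at 2112 ± 180 in WT and 2307 ± 295 in Rptor fl/fl, and Ckb at 373 ± 7.74 and 438 ± 23.2 (SD, n = 3 each). Ak3 was at 140 ± 10.3 and Slc6a8 at 111 ± 3.50 CPM per kilobase in WT mice, and Ak4, Gamt and Ak1 were near the limit of detection there.

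Tests were made with edgeR over all genes with enough counts, and a gene is called changed at an adjusted p under 0.05. Between Rptor fl/fl and WT organoids 3 of the 7 genes were called in mRNA, beside 22.6% of the 14131 genes tested. Ckb and Ak4 were lower and Slc6a8 was higher in Rptor fl/fl organoids. Between SCe and WT organoids 4 of 7 were called, beside 42.3% of 14925, with Ckb, Slc6a8 and Ak1 higher and Ckmt1 lower in SCe organoids. Between Rptor fl/fl and SCe organoids 3 of 7 were called in mRNA, beside 42.7% of 15103, with Ckb and Ak4 lower and Ckmt1 higher in Rptor fl/fl organoids. These comparisons share their samples in pairs, so they are not independent of each other.

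In footprints of organoids 2 of the 6 genes with enough counts were called, beside 16.5% of 10817 genes tested, namely Ckmt1, higher in the libraries labelled Rptor fl/fl, and Ckb, lower in them. Translation efficiency, read as the difference between the change of footprints and the change of mRNA, was called for 2 of 6, beside 2.93% of 10747, and both Ckb and Ak4 were higher. In mice 2 of 5 genes with enough footprints were called, beside 13.4% of 11515, and Slc6a8 and Ckb were both higher in Rptor fl/fl mice. Ak1 was not tested in either footprint set and Ak4 not in mice, for lack of counts. The median log2 fold change of the members tested was −0.32 in mRNA of Rptor fl/fl against WT organoids, against −0.01 over all genes, and 0.16 in mice, against −0.02.

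**Figure D2:**
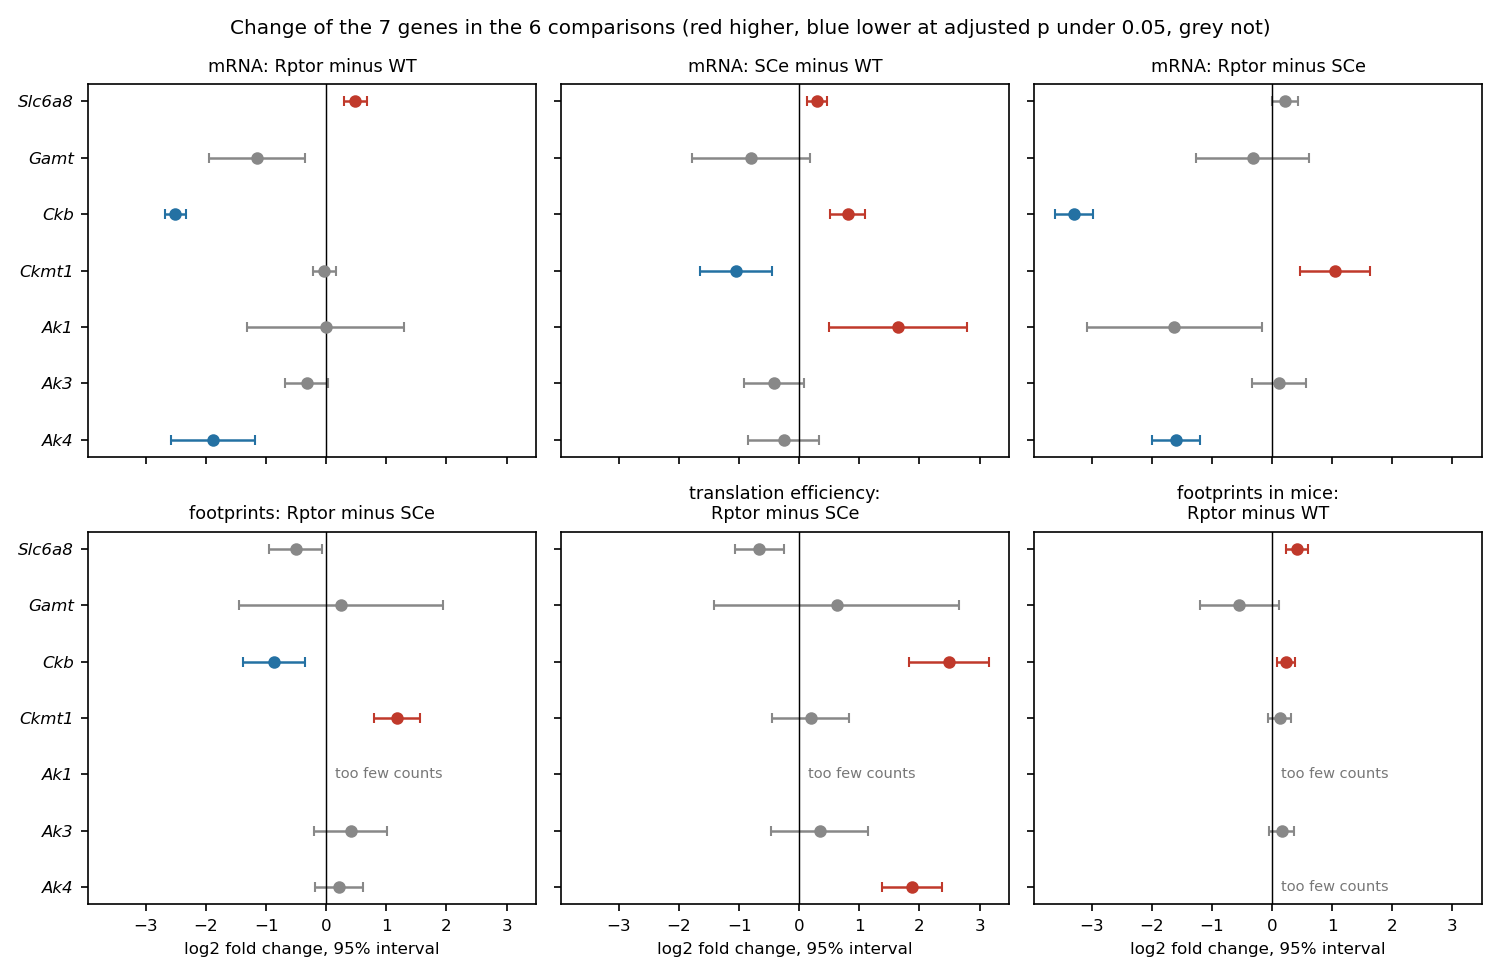
log2 fold change of the 7 genes in the 6 comparisons, first minus second group, with the 95% interval of the fit. Red marks a rise and blue a fall at an adjusted p under 0.05, grey marks neither, and the Ckb row shows a log2 fold change of −3.30 in mRNA but −0.86 in footprints for Rptor fl/fl minus SCe organoids.

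Slc6a8 imports creatine across the plasma membrane. Its mRNA was 69.0 and 67.8 CPM in WT lines, 101 and 90.1 CPM in Rptor fl/fl lines and 80.0, 86.3 and 81.5 CPM in SCe samples. Both other groups lay above WT without overlap. The rise in Rptor fl/fl organoids was 1.40-fold (log2 0.48, SE 0.0732, adjusted p = 0.0193) and that in SCe organoids 1.23-fold (log2 0.29, SE 0.0662, adjusted p = 0.0218). The first call was lost without WT line 1 (adjusted p = 0.067), without WT line 2 (0.0791) and with an offset for effective transcript length (0.0887). The second was lost without either WT line (0.14 and 0.157), without SCe sample 2 (0.0636), without SCe sample 3 (0.0692) and with the length offset (0.186).

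Slc6a8 footprints in organoids were 26.0, 28.2 and 26.5 CPM in SCe libraries and 20.7, 19.2 and 16.7 CPM in those labelled Rptor fl/fl, from 33 to 137 reads each. The groups did not overlap, but the difference did not pass the threshold (log2 −0.51, SE 0.193, adjusted p = 0.106), nor did that in translation efficiency (log2 −0.67, SE 0.184, adjusted p = 0.0796). In mice, Slc6a8 had 219, 205 and 212 CPM in WT and 250.2, 302 and 288 CPM in Rptor fl/fl. Every Rptor fl/fl mouse was above every WT mouse, a rise of 1.33-fold (log2 0.41, SE 0.0850, adjusted p = 0.00472).

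That rise held when any single mouse was left out, but the offset for effective length turned its direction (log2 −0.31, adjusted p = 0.918). Under this offset the effective length of Slc6a8 was 219 bases in WT mouse 2 and 466 bases in Rptor fl/fl mouse 1, against 1801 to 2263 bases in the other 4 mice. A Slc6a8 sequence of 141 bases took 2.39% of the gene's reads in WT mouse 2 and 0.978% in Rptor fl/fl mouse 1. It took 0.064% in Rptor fl/fl mouse 3 and none in the other mice. Beside the rise, 2 of the 5 erythroid markers were tested and both were higher in Rptor fl/fl mice, with a summed level of 435.5 to 539 CPM against 81.1 to 95.4 CPM. Of the enterocyte markers 3 of 7 were higher and 1 lower, and of the goblet markers 3 of 6 were higher. Of the Paneth markers 4 of 6 were lower (5837 to 9452 CPM summed against 10130 to 10910 CPM in WT), as were 2 of 7 stem cell markers tested. The part of these cells in the values of Slc6a8 was not tested.

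Gamt methylates guanidinoacetate to creatine, the last step of synthesis. It was barely expressed in organoids, with 2.42 and 1.53 CPM in WT lines, 0.929 and 0.857 CPM in Rptor fl/fl lines and 1.57, 0.911 and 0.912 CPM in SCe samples, from 47 to 128 reads each. Both Rptor fl/fl lines were below both WT lines, but the difference did not pass the threshold (log2 −1.15, SE 0.306, adjusted p = 0.0575). Gamt footprints were 2.16, 2.85 and 3.53 CPM in the organoid libraries labelled Rptor fl/fl and 5.41, 0 and 1.62 CPM in SCe libraries, where the count of 0 allows up to 2.56 CPM. In WT mice they were 7.55, 5.91 and 5.09 CPM and in Rptor fl/fl mice 2.95, 4.24 and 4.15 CPM, from 6 to 33 reads. No WT mouse overlapped a Rptor fl/fl mouse, yet at this depth the difference was not past the threshold (log2 −0.54, SE 0.310, adjusted p = 0.284).

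Ckb encodes the cytosolic, brain-type creatine kinase. Its mRNA was 226 and 209.7 CPM in WT lines, 38.8 and 37.5 CPM in Rptor fl/fl lines and 331, 389 and 404 CPM in SCe samples. The 3 groups did not overlap, and SCe organoids were highest and Rptor fl/fl organoids lowest. Ckb fell 5.72-fold in Rptor fl/fl against WT organoids (log2 −2.51, SE 0.0667, 95% interval −2.69 to −2.34, adjusted p = 0.00516), and its unadjusted p was the smallest of the 14131 genes tested. This call was kept under all 11 alternatives tried, with log2 fold changes between −2.57 and −2.46. Against SCe organoids the fall was 9.82-fold (log2 −3.30, SE 0.127, adjusted p = 0.000978), and it was kept under all 12 alternatives.

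Ckb was also 1.75-fold higher in SCe than in WT organoids (log2 0.80, SE 0.115, adjusted p = 0.00627), a call that was lost without WT line 1 (adjusted p = 0.0537) and without WT line 2 (0.0662). Other markers moved in the Rptor fl/fl lines too. Of 8 stem cell markers 6 were lower than in WT, with summed levels of 2008 and 3379 CPM against 4995 and 6760 CPM in WT, and of 6 Paneth cell markers 5 were lower, with 687 and 1459 CPM against 4047 and 5169 CPM. Goblet markers rose instead, with 3 of 6 higher and none lower, and summed levels of 2972 to 4134 CPM against 1736 to 1875 CPM in WT. The part of these markers in the level of Ckb was not tested.

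Ckb footprints differed much less than its mRNA. They were 594, 594 and 588 CPM in the organoid libraries labelled Rptor fl/fl and 909.6, 1456 and 869 CPM in SCe libraries. All SCe libraries were higher, by 1.82-fold (log2 −0.86 for Rptor fl/fl minus SCe, SE 0.226, adjusted p = 0.0331). SCe library 2, the shallowest, was the highest, and without it the log2 fold change was −0.58 (adjusted p = 0.0549). The call was also lost without library 1, 2 or 3 of those labelled Rptor fl/fl (adjusted p between 0.12 and 0.14) and with the length offset (0.0788).

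Per CPM of mRNA, Ckb had 2.88 CPM of footprints in SCe organoids and 15.5 CPM in organoids labelled Rptor fl/fl, as ratios of group means. The corresponding change in translation efficiency was 5.62-fold (log2 2.49, SE 0.300, 95% interval 1.83 to 3.15, adjusted p = 0.00435). It was called in 16 of 17 alternatives, with log2 values between 2.36 and 2.77. Rptor itself had a log2 value of 1.43 in the same test (SE 0.390, adjusted p = 0.0774). The Paneth markers had lower mRNA in 2 of 6 but more footprints in 2 of 6. None of the 6 was called in translation efficiency, where their median log2 was 1.59. Goblet markers went the other way, with 2 of 6 called lower in translation efficiency (median log2 −1.56), as was the 1 pancreatic acinar marker tested. Of 8 stem cell markers none was called (median log2 −0.11). The RNA-seq and Ribo-seq libraries of Rptor fl/fl organoids also differ in genotype by RPL22.HA. The part of these differences in the value of Ckb was not tested.

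In mice, Ckb footprints were 419, 425 and 437 CPM in WT and 480.4, 494 and 532 CPM in Rptor fl/fl. All Rptor fl/fl mice were above all WT mice, by 1.175-fold (log2 0.23, SE 0.0711, adjusted p = 0.0427). This small difference lost its call without WT mouse 1 (adjusted p = 0.106), 2 (0.132) or 3 (0.0979), without Rptor fl/fl mouse 2 (0.112) or 3 (0.164), and with the length offset (0.0905).

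Ckmt1 encodes the ubiquitous mitochondrial creatine kinase, which sits between the mitochondrial membranes and charges creatine with phosphate from newly made ATP. Its mRNA was 519.7 and 524 CPM in WT lines, 493 and 527 CPM in Rptor fl/fl lines and 176, 298 and 271 CPM in SCe samples. WT and Rptor fl/fl lines overlapped (log2 −0.03, 95% interval −0.22 to 0.16, adjusted p = 0.766). The SCe samples were all lower, by 2.07-fold against WT (log2 −1.05, SE 0.233, adjusted p = 0.0209) and 2.06-fold against Rptor fl/fl (log2 1.04 for Rptor fl/fl minus SCe, SE 0.230, adjusted p = 0.0195). Without SCe sample 3 the adjusted p was 0.0584 and 0.056, and without a WT or Rptor fl/fl line it was between 0.092 and 0.111. Of the secretory markers, 4 of 6 goblet and 6 of 7 enteroendocrine markers were lower in SCe than in WT organoids, while of 6 Paneth markers none was called and of 4 tuft cell markers tested 1 was higher and 2 were lower. Of 7 enterocyte markers 1 was lower and none higher (median log2 −0.77), with 230 to 6704 CPM summed in SCe samples against 6651 to 7235 CPM in WT. The part of these cells in Ckmt1 was not tested.

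Ckmt1 footprints, like its mRNA, were lower in SCe organoids. They were 999.9, 884 and 858 CPM in the organoid libraries labelled Rptor fl/fl and 397, 445 and 376 CPM in SCe libraries. The groups were well apart, with a 2.25-fold higher level in the libraries labelled Rptor fl/fl (log2 1.17, SE 0.169, 95% interval 0.79 to 1.56, adjusted p = 0.00329), a call kept under all 11 alternatives. The value for translation efficiency was near zero (log2 0.19, 95% interval −0.44 to 0.83, adjusted p = 0.765). In mice Ckmt1 had 2904, 2603 and 2460 CPM in WT and 2504, 2956 and 3237 CPM in Rptor fl/fl. The ranges overlapped (log2 0.13, SE 0.0898, adjusted p = 0.392), although without Rptor fl/fl mouse 1, which was the lowest of its group, the difference passed the threshold (log2 0.23, adjusted p = 0.02).

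Ak4, a mitochondrial matrix enzyme of the adenylate kinase family that is known as a hypoxia-induced gene, was the adenylate kinase with the clearest change. Its mRNA was 156 and 95.1 CPM in WT lines, 37.7 and 30.2 CPM in Rptor fl/fl lines and 109.5, 111 and 89.1 CPM in SCe samples. WT and SCe overlapped, and both Rptor fl/fl lines lay below all other samples. Ak4 fell 3.70-fold against WT (log2 −1.89, SE 0.266, 95% interval −2.58 to −1.19, adjusted p = 0.0175) and 3.04-fold against SCe organoids (log2 −1.60, SE 0.156, adjusted p = 0.00225). The fall against SCe organoids was kept under all 12 alternatives, while that against WT just missed the threshold without Rptor fl/fl line 1 (adjusted p = 0.051) and line 2 (0.0543).

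Ak4 footprints were 58.2, 63.1 and 63.5 CPM in the organoid libraries labelled Rptor fl/fl and 62.8, 50.4 and 46.6 CPM in SCe libraries, from 59 to 522 reads. The groups overlapped (log2 0.21, SE 0.176, 95% interval −0.19 to 0.61, adjusted p = 0.442). Ak4 thus had 0.516 CPM of footprints per CPM of mRNA in SCe organoids and 1.81 in organoids labelled Rptor fl/fl, and its translation efficiency was 3.67-fold higher in the latter (log2 1.87, SE 0.226, 95% interval 1.38 to 2.37, adjusted p = 0.00435). That call was kept in 16 of 17 alternatives, with log2 values between 1.73 and 2.03. The values for Rptor, the cell type markers of both directions and the genotypes given beside Ckb apply here too, and their part was not tested.

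In mice, Ak4 was hardly footprinted, with 0, 3 and 5 reads in WT and 5, 1 and 6 reads in Rptor fl/fl. The count of 0 in WT mouse 1 allows up to 3.77 CPM, and a difference between genotypes was not detectable at this depth.

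**Figure D3:**
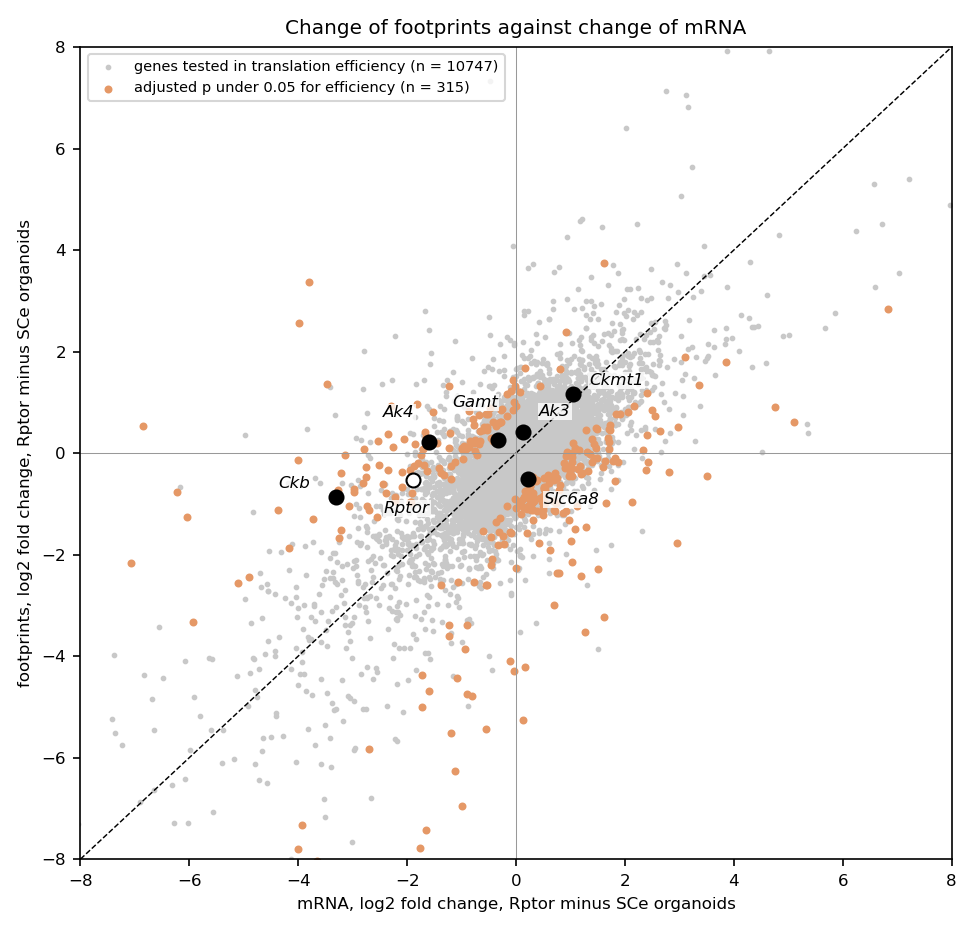
Change of footprints against change of mRNA, both as log2 fold change of Rptor fl/fl minus SCe organoids, for the 10747 genes tested in translation efficiency, of which 32 lie outside the axes. Orange points passed an adjusted p of 0.05 for translation efficiency (315 genes), black points are the listed genes tested, the open point is Rptor, and Ckb and Ak4 lie above the dashed line of equal change.

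Ak3, the matrix enzyme that uses GTP to phosphorylate AMP, varied little. Its mRNA was 331 and 261 CPM in WT lines, 251 and 222 CPM in Rptor fl/fl lines and 268, 198 and 189 CPM in SCe samples. Both Rptor fl/fl lines were below both WT lines, but the difference did not pass the threshold (log2 −0.32, SE 0.137, 95% interval −0.68 to 0.03, adjusted p = 0.152). Footprints were 160.2, 247 and 220.1 CPM in the organoid libraries labelled Rptor fl/fl and 205, 166 and 105 CPM in SCe libraries, and they overlapped (adjusted p = 0.336). In mice they were 89.3, 103 and 94.0 CPM in WT and 118, 98.8 and 106 CPM in Rptor fl/fl (adjusted p = 0.322), again with overlap. Leaving out SCe sample 1, whose Ak3 mRNA was the highest of its group, put its mRNA past the threshold, lower than in WT (log2 −0.60, adjusted p = 0.0069) and higher in Rptor fl/fl than in SCe organoids (log2 0.29, adjusted p = 0.0272).

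Ak1, the cytosolic adenylate kinase known from muscle, was near the limit of detection. Its mRNA was 1.095 and 0.807 CPM in WT lines, 1.36 and 0.542 CPM in Rptor fl/fl lines and 4.45, 2.32 and 2.08 CPM in SCe samples, from 31 to 148 reads each. All SCe samples were higher than the other 4 lines, by 3.12-fold against WT (log2 1.64, SE 0.446, adjusted p = 0.0368), while the difference from Rptor fl/fl organoids did not pass the threshold (adjusted p = 0.0719). The call against WT was lost without WT line 1 (adjusted p = 0.133), WT line 2 (0.195), SCe sample 2 (0.0641) or SCe sample 3 (0.054), and with the length offset (0.299). Of 5 enteric neuron markers tested 2 were higher in SCe organoids, with a summed level of 36.7 to 49.1 CPM against 9.14 to 10.5 CPM in WT. Of 4 smooth muscle markers tested 2 were higher and 1 lower, with 7.72 to 20.8 CPM summed against 49.5 to 50.9 CPM. The part of these cells in the rises of Ak1 and Ckb was not tested. The transcript ENSMUST00000113278.8 held 80.3% to 100% of Ak1 reads in each SCe sample, 0% and 54.8% in lines with floxed Rptor and 20.1% and 100% in WT lines, so the WT lines overlapped both other groups. Ak1 footprints numbered between 1 and 6 in each organoid library. The WT mice had 0, 5 and 11 of them (0, 2.27 and 2.00 CPM) and the Rptor fl/fl mice 16, 11 and 24 (5.25, 3.33 and 3.02 CPM). The count of 0 allows up to 3.77 CPM, which is above the level of 2 of the 3 Rptor fl/fl mice.

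The other genes of the pathway were read from 6 lists of 41 genes in all. In mRNA of Rptor fl/fl against WT organoids 5 of the 34 tested were higher and 4 lower, beside 22.6% called over all genes, with a median log2 fold change of −0.02 against −0.01 over all genes. Subunits of AMPK gave 3 of the rises and no called fall among 7 tested genes of their list. The regulatory subunits Prkab1 (68.6 ± 1.37 against 47.2 ± 0.409 CPM, SD, n = 2 each, adjusted p = 0.0109), Prkag2 (73.7 ± 3.09 against 51.0 ± 0.852 CPM, adjusted p = 0.0121) and Prkab2 (13.7 ± 0.121 against 8.06 ± 0.868 CPM, adjusted p = 0.0193) were each 1.44-fold to 1.70-fold higher. Ampd3, which deaminates AMP, was 1.54-fold higher (31.0 ± 1.79 against 20.1 ± 0.296 CPM, adjusted p = 0.0167).

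Between SCe and WT organoids 8 of 37 pathway genes were higher and 7 lower, beside 42.3% called over all genes. Both carriers with the smallest adjusted p rose. Slc25a23, an ATP-Mg and phosphate carrier, was at 78.6 ± 8.48 CPM in SCe (SD, n = 3) and 21.9 ± 2.71 CPM in WT (SD, n = 2; adjusted p = 0.00166), and Slc25a4, the ADP/ATP carrier known from heart and muscle, at 214 ± 29.0 and 50.2 ± 7.74 CPM (adjusted p = 0.00181). The nucleotide kinases Nme3 (5.14 ± 0.121 against 10.7 ± 0.454 CPM, adjusted p = 0.00425) and Cmpk1 (158 ± 15.7 against 255 ± 12.8 CPM, adjusted p = 0.00808) were lower in SCe organoids. The nucleotide kinase list had 3 genes higher and 3 lower of 11 tested.

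Between Rptor fl/fl and SCe organoids 7 of 37 were higher and 8 lower in mRNA, beside 42.7% called over all genes, where Prkab1 (2.17-fold, adjusted p = 0.00182) and Prkag2 (1.97-fold, adjusted p = 0.00623) were again higher and Slc25a23 (2.91-fold, adjusted p = 0.00312) and Slc25a4 (2.60-fold, adjusted p = 0.00371) lower in Rptor fl/fl. In footprints 1 of 30 was higher and 4 were lower, beside 16.5% called over all genes. Slc25a4 footprints were 42.3 ± 2.25 CPM in the libraries labelled Rptor fl/fl and 256 ± 48.7 CPM in SCe (SD, n = 3 each, adjusted p = 0.000302), and Slc25a23 had 2.48 ± 0.545 and 13.4 ± 6.25 CPM (adjusted p = 0.00845). Prkag1 was lower (44.5 ± 1.26 against 68.2 ± 8.64 CPM, adjusted p = 0.0356) and Cmpk1 higher (264 ± 16.8 against 179.8 ± 16.2 CPM, adjusted p = 0.0452). In translation efficiency 1 of 30 was called, beside 2.93% over all genes. This was Slc25a4, which was lower (log2 −1.16, SE 0.250, adjusted p = 0.0383), the direction opposite to Ckb and Ak4.

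In mice 3 of 30 pathway genes were called, all higher in Rptor fl/fl, beside 13.4% called over all genes. They were Vdac2, a channel of the outer mitochondrial membrane (646 ± 38.4 against 505 ± 32.5 CPM, SD, n = 3 each, adjusted p = 0.0057), the guanylate kinase gene Guk1 (40.8 ± 2.87 against 27.8 ± 2.92 CPM, adjusted p = 0.00723) and Prkag1 (52.9 ± 1.63 against 41.3 ± 2.502 CPM, adjusted p = 0.0356). Guk1 and Prkag1 footprints were thus higher in Rptor fl/fl mice and lower in the organoid libraries labelled Rptor fl/fl, against different controls (log2 −1.05, adjusted p = 0.0492 for Guk1 in the organoid footprints). The most genes called in one direction in any list were 4 of the 11 other nucleotide kinases, lower in mRNA of Rptor fl/fl than of SCe organoids. With 1 higher, 5 of these 11 were called, near the 42.7% called over all genes in that comparison. It is the longest list and was picked as the highest over 6 lists and 6 comparisons.

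**Figure D4:**
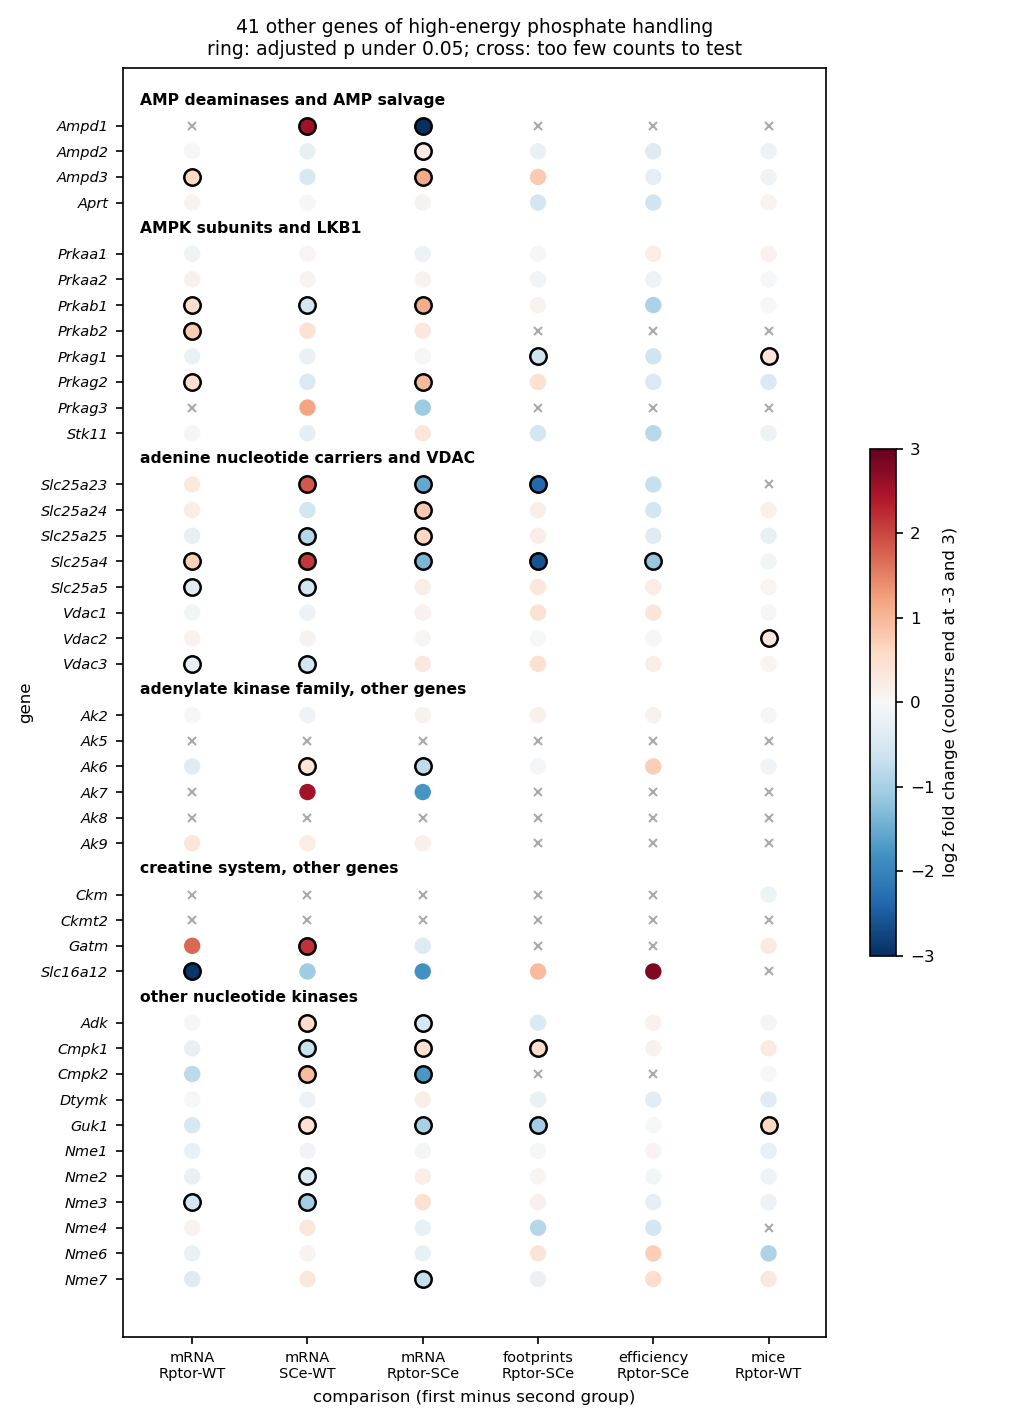
log2 fold change of the 41 other pathway genes (rows, grouped by list) in the 6 comparisons (columns, first minus second group), as colour from blue (lower) to red (higher). A ring marks an adjusted p under 0.05 and a cross a gene with too few counts, and rings are most frequent in the columns of SCe mRNA, with 15 each.

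The genes most like each listed gene were found by the correlation of log2(CPM + 1) over 19 samples, centred within each of the 3 sets, among 6912 genes with at least 10 CPM on average in each set. These values share libraries and are a description. Ckb was most like Taldo1 (Pearson's r = 0.965), Ndrg2 (0.964) and Sec14l2 (0.961). Ckmt1 was most like Gpt (0.989), Tstd1 (0.977) and Soat2 (0.972). Slc6a8 was like Anxa5 (0.873) and Aldh2 (0.872), and for Ak3 the 3 closest were Ubxn1 (0.902), Rbl2 (0.881) and Ppp1r2 (0.866). Ak4, whose counts in mice were near 0, had lower values, with Gpam (0.82), Zmat2 (0.818) and Psmd13 (0.803). Gamt (Armt1, Pex2 and Usmg5, 0.818 to 0.899) and Ak1 (Adam9, Naa25 and Rab3d, 0.823 to 0.873) had few counts in every set.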

How the data were processed

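The authors trimmed adapters from Ribo-seq reads with cutadapt 1.18, removed rRNA reads and quantified all libraries with Salmon 1.1.0 on protein-coding sequences of GENCODE vM21 (mm10), and the deposited files give an estimated count for each transcript. Organoid footprints were counted on coding sequences, with entries for 5′ regions kept apart and left out here, whereas the sequence lengths for mice mostly include the 5′ region. The authors' own table of translation efficiency, with ratios, log2 changes and p-values, was not used. Estimated counts were summed per gene and over the technical libraries of a line and rounded. Genes were filtered with filterByExpr and tested in R 4.3.3 with edgeR 4.0.16 (TMM, quasi-likelihood test, Benjamini-Hochberg adjustment over all genes tested, threshold 0.05), each comparison on its own groups. Efficiency of translation was tested as an assay by group interaction, with TMM within each assay. Standard errors are the log2 fold change divided by the square root of F. Totals of reads per sample, given in the results, set the precision, and a count of 0 was taken to allow 3 counts, which covers counting error only. The scripts were tested on simulated counts. Nothing in the labels shows that the organoid samples of a group came from separate animals, so their p-values measure the spread between these samples, which may be technical.

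The 7 genes, the 6 pathway lists and the 12 marker lists were chosen with earlier results of these data known. Named beside the 7 genes are Rptor, Lgr5, up to 4 called pathway genes per comparison, ranked by adjusted p, and the 3 genes most like each listed gene, of which 1 for Slc6a8 is not reported here. Cell type markers were named where they touch a result. Alternatives were DESeq2 1.42.0, no count filter, an effective length offset, library sizes without the 10 top genes, a threshold of 0.01, leaving out each sample, a replicate block, technical libraries as replicates, and all 3 RNA-seq groups in one fit.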

Additional observations from a re-analysis of the deposited data

Results flagged for a closer look

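Ckb and Slc6a8 footprints differed in opposite directions in organoids and in mice, with every library of a group on the same side. The share of all genes with groups apart in this way was not counted, so this describes the 2 genes only. For Ckb the log2 fold change was −0.86 in organoids (labelled Rptor fl/fl minus SCe) and 0.23 in mice (Rptor fl/fl minus WT). For Slc6a8 it was −0.51 and 0.41. The organoid difference of Slc6a8 did not pass the threshold (adjusted p = 0.106 by edgeR), and its value in mice turned to −0.31 with the length offset. Under that offset the effective length of Slc6a8 was 219 bases in WT mouse 2 and 466 bases in Rptor fl/fl mouse 1. In the other mice it was 1801 to 2263 bases. The Ckb calls were lost in 6 of 11 alternatives in organoids and in 7 of 11 in mice. The difference between these effects was not tested, and the controls differ, SCe organoids in the first and WT mice in the second. The reference sequences also differ, since those of mice mostly include the 5′ region.

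Footprints on the 5′ regions of Ckmt1, which the comparisons leave out, were above the SCe level in every organoid library labelled Rptor fl/fl only without TMM scaling. The lowest of these had 26.7 CPM, unscaled by TMM, and the highest SCe library 26.4, while the other 2 SCe libraries had 9.04 and 9.43. With TMM scaling the lowest library labelled Rptor fl/fl had 26.6 CPM and the highest SCe library 28.3 CPM, and the groups overlapped.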

How the results depend on the processing

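Of 506 log2 fold changes of the 7 genes under alternatives, 436 kept their direction and side of the threshold, 48 lost and 15 gained a call, and 7 reversed. The reversed values were Ckmt1 0.0135 (mRNA, Rptor fl/fl against WT, Rptor fl/fl line 1 left out), Ak1 0.22 and 0.52 (WT line 1 or Rptor fl/fl line 2 left out), Ak4 0.12 (SCe against WT, WT line 1 left out), Gamt −0.15 and −0.11 (organoid footprints, SCe library 2 or 3 left out) and Slc6a8 −0.31 (mice, length offset), and of these only Slc6a8 was called before. Over all samples left out in turn, the values ran from −0.0653 to 0.0135 for Ckmt1, −0.81 to 0.52 for Ak1, −0.59 to 0.12 for Ak4 and −0.15 to 1.28 for Gamt. The cause was not tested.

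In mRNA of Rptor fl/fl against WT, 3 of the 7 genes and 3195 genes in all were called. Technical libraries as replicates gave 5 and 7208, a threshold of 0.01 gave 1 and 143, and 1 fit of 3 groups gave 1544 genes in all. Leaving out a line gave 2 of the 7 and 939 to 2126 in all. For SCe against WT (4 and 6309), the length offset gave 2 of the 7, a threshold of 0.01 gave 1 and 2980, and leaving out a sample 0 to 6 and 2027 to 9530. For Rptor fl/fl against SCe (3 and 6452), a threshold of 0.01 gave 3041 in all and leaving out a sample 2 to 4 and 2509 to 9101. In organoid footprints (2 and 1781), the length offset gave 1 and 649, a threshold of 0.01 gave 1 and 668, and leaving out a library 1 to 2 and 669 to 2682. In translation efficiency (2 and 315, of which 38.1% higher), DESeq2 gave 1405 in all, technical libraries 1296, a threshold of 0.01 gave 48, the length offset 116 (52.6% higher) and leaving out a library 2 to 3 and 25 to 946. In mice (2 and 1548), DESeq2 gave 976 in all, the length offset 0 and 683, a threshold of 0.01 gave 1 and 796, and leaving out a mouse 1 to 3 and 897 to 1954. A group of 2 lines keeps 1 when a line is left out, and that line is assumed to vary like the other group.

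With the replicate number as a block, 5 of the 7 genes were called in mRNA of Rptor fl/fl against WT. The count over all genes in that fit is not reported here, so the 5 cannot be set against a background share. The block called 2 of the 7 for SCe against WT (3154 genes in all) and 1 in organoid footprints. It called 0 in translation efficiency (4 in all) and 1 in mice, and Rptor fl/fl against SCe mRNA gave 3413 in all. Ckb and Ak4 kept log2 values of 2.46 and 1.98 in translation efficiency under the block, at an adjusted p of 0.0586 each by edgeR. Deviations of same-numbered samples correlated at 0.303 for Rptor fl/fl and WT mRNA. For SCe and WT they correlated at 0.144 and 0.165, and for Rptor fl/fl and SCe at 0.197 and 0.25. The values were −0.044 to 0.029 in organoid footprints and −0.006 to 0.034 in mice. The numbers were not taken to pair the samples. The labels tie them to nothing shared, RNA-seq has no more than 2 pairs and the footprint values are near 0. The paper does state that further Rptor fl/fl material was induced in culture, so that samples would be paired. It does not say which libraries came from it, so whether the WT and Rptor fl/fl lines are paired is not known. If they are, the fit with the block would be the one to read. In mRNA the block called Gamt and Ak3 for Rptor fl/fl against WT (adjusted p = 0.0272 and 0.0246 by edgeR) and lost Slc6a8 and Ak1 for SCe against WT (0.111 and 0.0535). Depth limited Ak1 and Ak4 footprints in mice and Gamt and Ak1 in organoids most.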
